A study of Mus musculus with 46 samples.

Results

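Microglia sorted from gliomas that had regrown after radiation (IR) combined with BLZ945 were compared with microglia from gliomas that had regrown after IR alone. The 8 libraries were chosen by their labels, as all microglia libraries of the recurrent IR+BLZ945 stage (4 mice, 67169, 67543, 67947 and 68362) and of the recurrent IR stage (4 other mice, 68343, 68344, 68345 and 68346), out of 46 libraries in the series. All of these mice were of the nTVA Ink4a/Arf KO/KO genotype, in which the viral receptor TVA is expressed from the Nestin promoter and both copies of the Ink4a/Arf locus are deleted. At 5 to 6 weeks of age gliomas were started by injecting DF1 chicken fibroblasts, which shed the RCAS-PDGFB-HA virus, into the right frontal cortex. The series also held microglia from 4 vehicle mice, from 4 mice after 5 days of BLZ945 alone, 2 after 5 days of IR and 3 after 5 days of IR+BLZ945, from 2 mice with recurrence after BLZ945 alone, and bone marrow-derived macrophages (BMDM) from every mouse. Microglia (MG) were gated as CD45+ CD11b+ cells negative for Ly6C, Ly6G and CD49d, and BMDM as the CD49d+ counterpart. The labels do not state the radiation dose, the treatment schedule or the interval to recurrence. Each mouse gave 1 MG library, so the replicates are separate animals.

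Microglia settle the brain from yolk sac progenitors and depend on signals through the CSF1 receptor, which BLZ945 inhibits. In gliomas they take up debris through complement and Fc receptors, and on activation they can present peptides to CD4+ T cells on MHC class II molecules, an alpha and a beta chain whose genes share one transactivator, CIITA. The comparison asks whether microglia of a tumour that regrew despite combined treatment differ from those of a tumour that regrew after IR alone.

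Levels below are log2 CPM, which scales counts to the library total, and a difference is the log2 fold change ± SE, IR+BLZ945 minus IR, from edgeR's quasi-likelihood test over all 23 MG libraries, adjusted by the Benjamini-Hochberg method. By this test 0 of 14534 genes passed an adjusted p of 0.05, and the lowest adjusted p was 0.113. An unadjusted p under 0.05 was reached by 2062 genes, of which 762 were higher (5.24% of those tested) and 1300 lower (8.94%) after IR+BLZ945. When only the 8 libraries compared were fitted, 3094 of 12262 genes passed, 1745 higher (14.2%) and 1349 lower (11%). The common biological coefficient of variation was 0.484 over the 23 libraries and 0.259 over the 8. DESeq2 on the 23 libraries called 529 genes. Because the 23-library test called none, values are given below without calling them changes, beside the adjusted p in both fits.

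Total counts were 8402857 to 11816214 per library after IR+BLZ945 and 4597962 to 13231166 after IR, where 68344 was the lowest. Microglia identity was checked first: all 20 identity genes were tested, with a summed level of 19500 to 29100 CPM after IR+BLZ945, 19100 to 24900 after IR and 21500 to 45400 in vehicle MG. Cdkn2a, the gene of the deleted locus, lay between 0.09 and 1.25 after IR+BLZ945 and between 0.15 and 1.11 after IR. Ly6c2, of the excluded Ly6C antigen, did not exceed 2.03 in any of the 8 libraries. Sex-linked genes showed an Xist profile in 67947 and a Y-linked profile in the other 7 mice.

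A relation with transcript length ran through the comparison. Over 14380 genes, the Spearman correlation of the difference with transcript length was -0.512, and it was -0.58 in the fit of the 8 libraries. With genes split by length into 10 classes, in the shortest class the median difference was 0.498 and 24.3% were higher at an unadjusted p under 0.05, whereas in the longest class the median was -0.841 and 31% were lower. Within single libraries, the correlation of a gene's deviation from its mean over MG libraries with transcript length was -0.476, -0.470, -0.585 and -0.591 in mice 67169, 67543, 67947 and 68362. In the IR mice 68343, 68344, 68345 and 68346 it was -0.168, 0.227, 0.00733 and 0.131, so the groups did not overlap. These correlations are over genes, which are not independent replicates. A vehicle library (78, -0.392) and a BLZ945 recurrence library (67668, -0.469) also stood low. The level of Lars2, a gene for a mitochondrial leucyl-tRNA synthetase, was 12.70 to 15.12 after IR+BLZ945 and 11.62 to 12.41 after IR, and that of Rn45s, the ribosomal RNA precursor, was 12.03 to 14.76 and 11.16 to 12.03. The part of RNA quality or library preparation in the length relation was not tested. A second analysis, chosen after the values were seen, removed the relation with an offset for length in each library. With it 0 genes passed over the 23 libraries and 829 over the 8, 349 higher (2.85%) and 480 lower (3.91%). Of these 829, 651 were among the 3094 called without the offset, which is 78.5% of the shorter list and 21% of the longer.

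**Figure D1:**
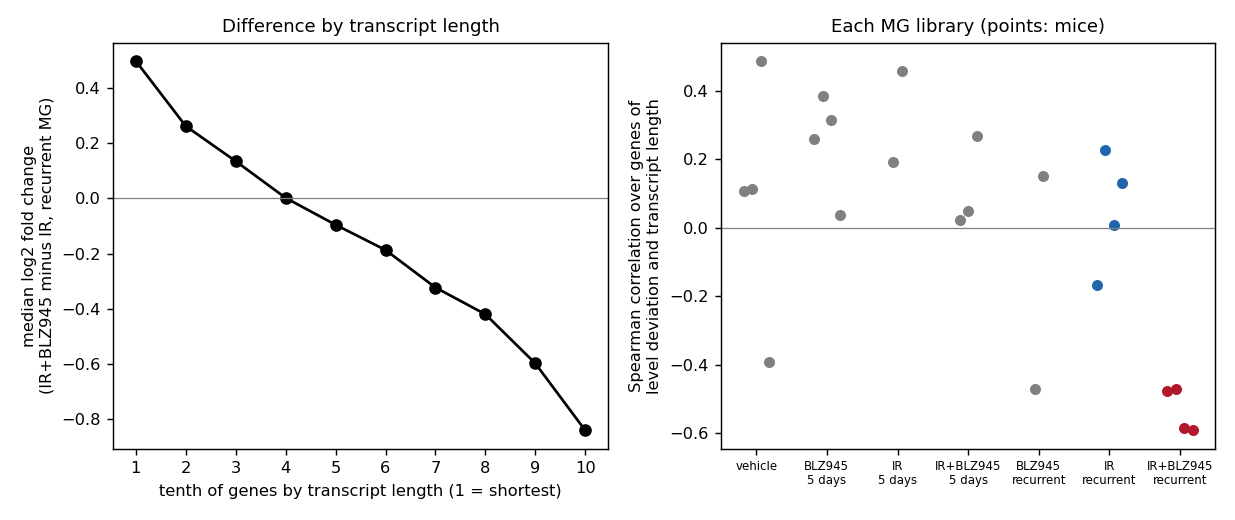
Left, the median log2 fold change (IR+BLZ945 minus IR, recurrent MG) in each of 10 classes of genes by transcript length, from 0.498 in the shortest to -0.841 in the longest; right, for each MG library (1 point per mouse), the Spearman correlation over genes of a gene's deviation from its mean and its transcript length. The 4 recurrent IR+BLZ945 libraries lie from -0.591 to -0.470, below the 4 recurrent IR libraries.

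Of the 26 gene lists described, MHC class II had the largest median difference. Of 11 genes of the list in the table, 10 were tested and all 10 had positive differences, with a median of 1.95 against -0.16 over all genes tested. An unadjusted p under 0.05 was reached by 8 of 10, all higher, where 5.24% of all genes were. In the fit of the 8 libraries 10 of 10 were called higher, where 14.2% of all genes were. With the length offset the median was 1.57 and 2 of 10 were called in the fit of the 8 libraries. In that fit 2.85% of all genes were called higher and 3.91% lower. The list was named among others with earlier results of these data known, so its counts are a description. In all, 42 lists were measured, and the red blood cell list, not described here, had a larger median of 3.28 over 2 tested genes.

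The RefSeq promoters of these genes are shown because the tested members differ in the same direction here. A further reason is that CIITA acts through factors bound at a shared X box and Y box upstream of their starts. In the 250 bases before the start, on either strand, the Y box core GATTGG was found in 8 of the 8 class II genes with a promoter in the table (100%), against 16.6% of 27025 genes. A longer X box sequence was found in 4 of the 8 (50%), against 0.958% of all genes, and both were found in the same promoter in 4 (50%), against 0.141%. These 4 include H2-Eb2, the list member that was not tested in MG. H2-Ab1, Cd74 and Ciita are not among the 8. The motifs do not overlap and were chosen after the values were seen, and a match is a description of letters, not of a bound factor. Both boxes are known from class II promoters, so high shares in these genes were given in advance and are no result of these data. The part of CIITA in the differences was not tested. In the sequences below (GRCm38.p6) capitals mark matches to either motif: H2-Aa, the alpha chain of I-A, at chr17:34287824-34288073 on the minus strand, H2-Eb1, the beta chain of I-E, at chr17:34305617-34305866 on the plus strand, and H2-DMb1, a chain of the peptide exchange factor DM, at chr17:34152941-34153190 on the plus strand.
H2-Aa: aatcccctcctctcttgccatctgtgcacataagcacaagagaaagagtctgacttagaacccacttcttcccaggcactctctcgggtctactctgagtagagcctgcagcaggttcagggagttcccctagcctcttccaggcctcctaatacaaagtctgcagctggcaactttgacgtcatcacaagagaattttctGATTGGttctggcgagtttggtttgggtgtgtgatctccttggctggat
H2-Eb1: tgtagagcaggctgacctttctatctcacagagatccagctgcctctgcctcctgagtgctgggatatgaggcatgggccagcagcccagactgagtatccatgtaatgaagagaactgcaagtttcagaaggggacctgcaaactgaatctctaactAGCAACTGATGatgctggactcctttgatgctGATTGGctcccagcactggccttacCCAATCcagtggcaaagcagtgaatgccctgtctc
H2-DMb1: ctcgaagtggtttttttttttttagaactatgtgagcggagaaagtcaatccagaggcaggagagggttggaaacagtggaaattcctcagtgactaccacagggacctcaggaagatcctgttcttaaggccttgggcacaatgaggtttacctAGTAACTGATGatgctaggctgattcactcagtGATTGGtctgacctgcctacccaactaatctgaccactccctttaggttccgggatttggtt

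The Y box core began 49 bases before the start in H2-Aa, 60 in H2-Eb1 and 62 in H2-DMb1, and the X box sequence 92 and 95 bases before it in H2-Eb1 and H2-DMb1. No match to these X box letters lay in the H2-Aa window.

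H2-Aa (chromosome 17, 34282744 to 34287823) stood at 7.53, 8.99, 6.26 and 10.30 in IR+BLZ945 mice 67169, 67543, 67947 and 68362. In IR mice 68343, 68344, 68345 and 68346 it stood at 5.17, 4.35, 6.68 and 5.00. The groups overlapped in 1 mouse each, 67947 below 68345, and the difference was 3.41 ± 0.85 (adjusted p = 0.119; 0.0256 in the fit of the 8 libraries). H2-Eb1 followed the same order of mice after IR+BLZ945, at 6.83, 8.19, 5.67 and 9.21, against 4.30, 3.98, 6.07 and 4.61 after IR (3.04 ± 0.76, adjusted p = 0.119; 0.0245 in the fit of the 8 libraries). H2-Ab1, the beta chain that pairs with H2-Aa, was 8.85, 9.98, 7.61 and 10.93 against 7.03, 6.59, 7.77 and 6.89 (2.68 ± 0.71, adjusted p = 0.138; 0.0114). Cd74, the invariant chain that escorts class II molecules to the endosome, was 9.10, 9.78, 8.55 and 11.49 against 7.53, 7.02, 8.55 and 7.53 (2.42 ± 0.68, adjusted p = 0.152; 0.0173). Ciita, the gene of the transactivator, was at 1.81, 4.13, -0.40 and 2.54 against 0.58, -3.48, 0.67 and -1.05, where -3.48 is a count of 0 (2.90 ± 0.95, adjusted p = 0.19; 0.0332). H2-Ab1, Cd74 and Ciita were chosen for printing after their values were seen. With the length offset, only H2-Ab1 of these 5 genes was called in the fit of the 8 libraries (2.22 ± 0.55, adjusted p = 0.0418). The adjusted p there was 0.066 for H2-Aa, 0.0559 for H2-Eb1, 0.0545 for Cd74 and 0.0617 for Ciita. Mouse 67947 was the lowest of the IR+BLZ945 mice and 68345 the highest or joint highest of the IR mice for each of these 5 genes.

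The genes of peptide exchange had smaller differences and smaller errors. H2-Oa, a chain of the DO modulator, differed by 1.47 ± 0.44 (adjusted p = 0.154; 0.00295 in the fit of the 8 libraries), H2-DMb1 by 0.81 ± 0.34 (adjusted p = 0.289; 0.0052) and H2-DMa by 0.86 ± 0.42 (adjusted p = 0.358; 0.00752). These 3 genes were the members of the list whose groups did not overlap, where 9.51% of all genes were higher without overlap. The other DM and DO chains tested overlapped. H2-DMb2 differed by 1.09 ± 0.49 (adjusted p = 0.317, and 0.0313 in the fit of the 8 libraries) and H2-Ob by 0.78 ± 0.60 (adjusted p = 0.566, and 0.0342). Leaving out each of the 8 mice in turn moved the list median between 1.39 and 2.24 and the H2-Aa difference between 2.47 and 4.18.

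The vehicle mice were set beside both groups as values, with no test. H2-Aa was 7.42, 7.90, 7.52 and 7.52 in the 4 vehicle mice, above all 4 IR mice, whereas the IR+BLZ945 mice lay on both sides. The mean class II level was 5.80 to 6.27 in vehicle, 4.32 to 5.50 after IR and 5.594 to 7.555 after IR+BLZ945. In the recurrences after BLZ945 alone it was 8.80 in 67668 and 6.83 in 70696. At 5 days H2-Aa was 8.14, 7.44 and 7.34 after IR+BLZ945 and 6.88 and 5.22 after IR, and the difference at recurrence did not pass a test against that at 5 days (1.99 ± 1.26, adjusted p = 0.435).

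**Figure D2:**
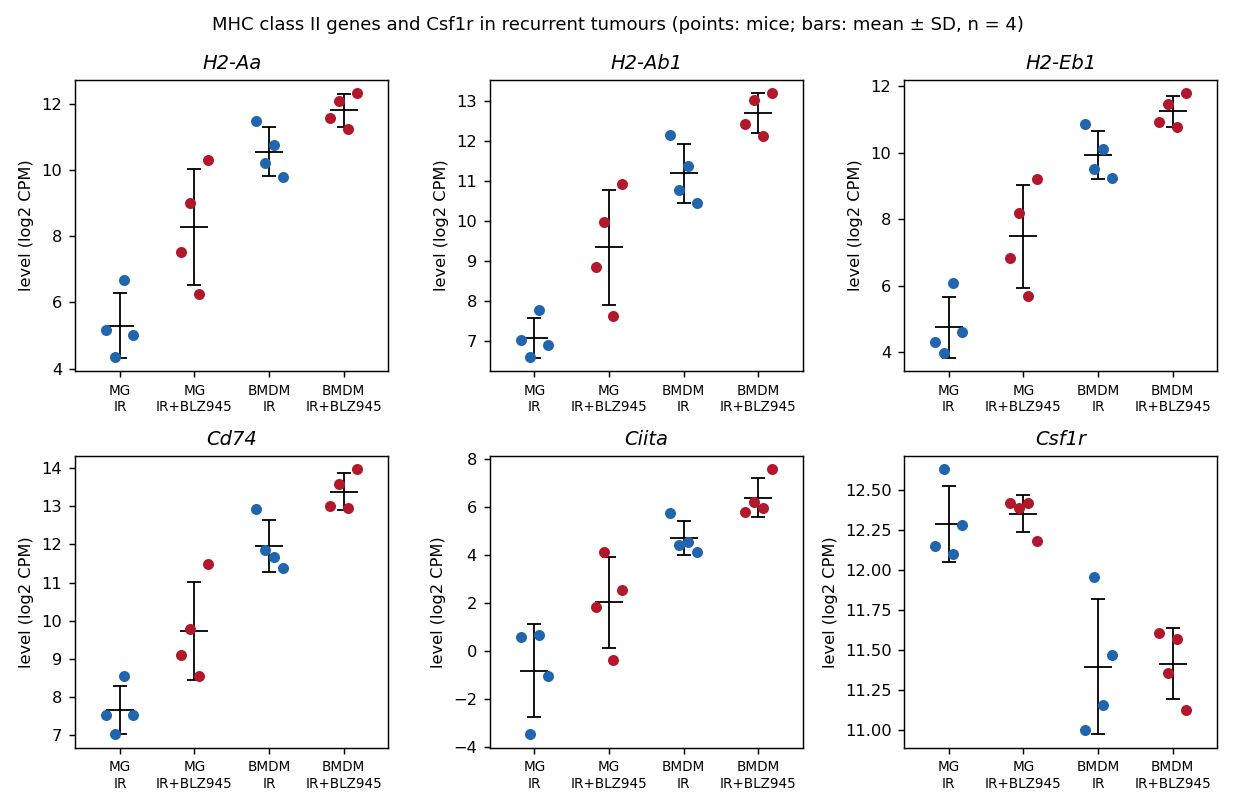
Level (log2 CPM) of 5 MHC class II pathway genes and of Csf1r in recurrent tumours, in MG and BMDM after IR (blue) and IR+BLZ945 (red), 1 point per mouse with the mean ± SD of 4 mice. In MG, H2-Aa spans 4.35 to 6.68 after IR and 6.26 to 10.30 after IR+BLZ945, whereas Csf1r spans 12.10 to 12.63 and 12.18 to 12.42.

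The BMDM of the same mice carried the same direction at a higher level. H2-Ab1 was 12.43, 13.03, 12.12 and 13.19 in BMDM after IR+BLZ945 and 12.14, 10.78, 11.38 and 10.44 after IR, a difference of 1.42 ± 0.38 (adjusted p = 1). Of 11 class II genes tested in BMDM, 10 were higher at an unadjusted p under 0.05, where 1.35% of all genes were, with a median difference of 1.23. Dendritic cell markers in BMDM had a median of 1.73 with 9 of 11 higher at that p, and T and NK cell markers a median of 2.75 with 8 of 14 higher; their part in the BMDM class II values was not tested. No gene passed in BMDM by edgeR (241 at an unadjusted p under 0.05, 10 by DESeq2). The difference between MG and BMDM in this contrast was tested over all 46 libraries, and 0 of 15901 genes passed (298 at an unadjusted p under 0.05, 9 by DESeq2). For H2-Aa that test gave 2.39 (adjusted p = 1). In BMDM the correlation of the difference with transcript length was -0.159.

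Markers of other antigen-presenting cells were measured beside class II, because MG sorts can hold such cells. Of 11 dendritic cell markers 10 were tested, 9 with positive and 1 with negative differences and a median of 0.63 (1.00 without 67947). Of these, 1 was higher at an unadjusted p under 0.05, where 5.24% of all genes were, and the summed level was 65.6 to 226 CPM after IR+BLZ945 and 76.9 to 151 after IR. Kmo, an enzyme of tryptophan breakdown, had the largest difference of the list at 2.11, 3.30, -1.84 and 0.67 after IR+BLZ945 and -0.47, -0.99, 0.74 and 0.05 after IR (2.08 ± 1.04, adjusted p = 0.37), with 67947 again the lowest. Cd209a, a lectin of monocyte-derived dendritic cells, differed by 1.67 ± 1.19 (adjusted p = 0.53). The 1 marker with a negative difference was Zbtb46, which defines classical dendritic cells; it was 0.37, -0.79, 0.30 and 0.83 after IR+BLZ945 and 0.94, 1.11, 1.35 and 0.15 after IR. Flt3, their cytokine receptor, was 1.07, 0.85, -1.09 and 0.83 against 0.71, -0.49, 0.07 and -0.48. Batf3, a transcription factor of cross-presenting dendritic cells, was 3.49, 3.17, 2.89 and 3.74 against 2.46, 1.77, 2.63 and 1.92, without overlap (1.12 ± 0.37, adjusted p = 0.189). The 22 blood-derived macrophage markers had a median difference of 0.02 and summed to 4500 to 7960 CPM after IR+BLZ945 and 5770 to 6190 after IR. B cell markers summed to 10.1 to 12.4 and 10.3 to 18.6 CPM, with Pax5 and Blk at 0 in all 8 libraries. The part of other cells in the class II values was not tested, and in sorted bulk samples a change in the share of cells and a change in RNA per cell cannot be told apart. Itga4, the gene of the CD49d antigen that the gate excluded, was 1.07 to 1.89 after IR+BLZ945 and 2.29 to 3.27 after IR (-1.40 ± 0.49, adjusted p = 0.216; 0.0134 in the fit of the 8 libraries), and with the length offset it differed by -0.51 ± 0.47 and was not called over the 8 libraries (adjusted p = 0.331).

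MHC class I and the immunoproteasome, which feeds it, differed less. Of 14 genes 13 were tested, the median difference was 0.57 (0.37 without 68362), and 5 were higher at an unadjusted p under 0.05, where 5.24% of all genes were. Psmb9, an immunoproteasome subunit, was 6.53, 7.02, 6.59 and 7.65 after IR+BLZ945 and 6.33, 6.00, 6.15 and 5.87 after IR, with no overlap (0.92 ± 0.35, adjusted p = 0.235; 0.0114 in the fit of the 8 libraries). Psmb8 likewise did not overlap, at 8.59 to 9.17 and 8.10 to 8.45. With the length offset Psmb9 was 0.62 ± 0.33 and Psmb8 0.47 ± 0.26. Neither was called with it in the fit of the 8 libraries (adjusted p = 0.0957 and 0.079). B2m, the light chain of class I, was 12.49, 12.11, 13.24 and 13.64 against 12.33, 11.64, 12.20 and 12.21 (0.88 ± 0.31, adjusted p = 0.217), and this short transcript had 0.36 ± 0.30 with the length offset. Interferon-induced genes had a median difference of -0.02 over 26 genes, with Rsad2, an antiviral enzyme, at 5.69, 6.38, 6.28 and 6.69 against 8.10, 6.68, 6.95 and 7.09 (-1.01 ± 0.47, adjusted p = 0.336).

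The complement and Fc receptor genes of debris uptake held differences in both directions. The 3 chains of C1q, the recognition molecule of the classical pathway, were higher without overlap, where 9.51% of all genes were. C1qb was 13.51, 13.15, 13.86 and 13.51 after IR+BLZ945 and 12.45, 12.40, 12.53 and 12.52 after IR (1.05 ± 0.25, adjusted p = 0.113; 0.00365 in the fit of the 8 libraries). C1qa spanned 12.83 to 13.19 against 12.07 to 12.37, and C1qc 12.81 to 13.13 against 12.10 to 12.21. Their transcripts are short, and with the length offset C1qb was 0.66 ± 0.20 and did not pass in the fit of the 8 libraries (adjusted p = 0.0637). Among Fc receptors, Fcgr3 was 10.96, 11.20, 11.56 and 11.27 against 10.74, 10.37, 10.20 and 10.39 (0.82 ± 0.24, adjusted p = 0.154). Itgav, the integrin chain that binds coated apoptotic cells, lay the other way at 6.23, 5.90, 5.69 and 5.32 against 6.71, 7.21, 7.44 and 7.49 (-1.42 ± 0.35, adjusted p = 0.113). Its transcript is long, and with the length offset the difference was -0.75 ± 0.25 (adjusted p = 0.493; 0.0294 in the fit of the 8 libraries). Cd93, a C1q receptor-related surface protein, was 2.49, 2.94, 3.45 and 1.29 against 5.01, 3.64, 5.47 and 5.54 (-2.36 ± 0.70, adjusted p = 0.154). Of the 15 Fc receptor and engulfment genes, 5 were higher and 3 lower at an unadjusted p under 0.05, and of 15 complement genes 3 were higher and 1 lower, where 5.24% of all genes were higher and 8.94% lower.

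Microglia identity genes differed in both directions. Their median difference was 0.20 over 20 genes (0.40 without 67543), with 3 higher and 1 lower at an unadjusted p under 0.05, where 5.24% and 8.94% of all genes were. The 1 lower gene was Sall3, of the Sall family of zinc finger factors, at -1.05 ± 0.34 without overlap (adjusted p = 0.19; 0.0174 in the fit of the 8 libraries). Sall1, a transcription factor of microglial identity, also lay lower without overlap, at -0.57 ± 0.34 (adjusted p = 0.453; 0.0475). Both have long transcripts, of 7079 and 5265 bases. Tmem119, a microglial surface protein, was 10.93, 11.25, 10.97 and 10.92 after IR+BLZ945 and 10.11, 10.48, 10.04 and 10.17 after IR (0.81 ± 0.31, adjusted p = 0.235; 0.00474 in the fit of the 8 libraries, and 0.0185 there with the length offset). Crybb1, a crystallin gene that marks microglia, was 7.46, 7.51, 7.63 and 8.43 against 6.18, 6.56, 5.02 and 5.79 (1.83 ± 0.48, adjusted p = 0.135; 0.00396). P2ry12, the purinergic receptor of microglial processes, overlapped at 9.98, 9.24, 10.12 and 10.68 against 9.75, 10.08, 9.53 and 9.87 (0.28 ± 0.33, adjusted p = 0.728). Trem2, a lipid-sensing receptor, was 9.90, 9.0, 10.17 and 10.06 against 8.90, 9.18, 8.80 and 8.97 (0.88 ± 0.27, adjusted p = 0.173), and its adaptor Tyrobp was 11.28 to 12.41 against 10.92 to 11.05 without overlap (1.02 ± 0.27, adjusted p = 0.141). Tyrobp has a short transcript and stood at 0.29 ± 0.21 with the length offset. Apoe, a lipid carrier, overlapped at 13.03, 12.58, 14.75 and 13.26 against 12.42, 13.70, 12.91 and 13.12 (0.55 ± 0.55, adjusted p = 0.671).

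The receptor that BLZ945 inhibits had overlapping levels. Csf1r (chromosome 18, 61105572 to 61131139) was 12.42, 12.39, 12.42 and 12.18 after IR+BLZ945 and 12.15, 12.63, 12.10 and 12.28 after IR, within the 12.09 to 13.43 of vehicle MG (0.05 ± 0.23, adjusted p = 0.946). Its ligand Csf1 was 9.19, 8.20, 8.44 and 7.11 against 8.10, 8.97, 8.62 and 8.64 (-0.20 ± 0.43, adjusted p = 0.867). The receptor axis list had a median of 0.04 over 18 genes. Sfpi1, the gene of the myeloid factor PU.1, was 8.25, 8.69, 8.45 and 8.21 against 7.94, 8.12, 7.96 and 7.91, a small difference without overlap (0.43 ± 0.19, adjusted p = 0.298).

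Of 24 growth factor genes 19 had negative differences, the median was -0.56 (-0.31 without 68362), and 3 were lower at an unadjusted p under 0.05, where 8.94% of all genes were, so the count was near the share of all genes. Igfbp3, a carrier that binds insulin-like growth factors, was 3.47, 4.26, 4.89 and 3.36 after IR+BLZ945 and 5.47, 5.48, 6.78 and 6.94 after IR (-2.20 ± 0.60, adjusted p = 0.146; 0.00766 in the fit of the 8 libraries, and 0.0156 there with the length offset). In vehicle MG it was -3.48 to 0.52, below all 8 recurrent libraries. Igf1 itself overlapped, at 6.09, 5.83, 5.65 and 6.57 against 5.08, 7.0, 5.43 and 6.24 (-0.05 ± 0.67, adjusted p = 0.986). Its receptor gene Igf1r was 2.49, 2.51, 1.56 and 1.23 against 3.18, 1.93, 2.75 and 2.96 (-0.75 ± 0.53, adjusted p = 0.53).

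The 18 alternative activation genes had a median difference of 0.91 (0.48 without 67543), with 5 higher and 1 lower at an unadjusted p under 0.05, where 5.24% and 8.94% of all genes were. Arg1, the arginase of alternatively activated macrophages, was 9.47, 10.83, 7.10 and 8.44 after IR+BLZ945 and 8.54, 4.83, 7.58 and 6.81 after IR (2.10 ± 1.24, adjusted p = 0.443). Mrc1, the mannose receptor, overlapped at 3.57, 2.98, 3.87 and 3.79 against 3.81, 2.91, 4.31 and 3.85 (-0.22 ± 0.68, adjusted p = 0.914). Ccl17, a chemokine that attracts T cells, had 139, 484, 4 and 199 counts after IR+BLZ945 and 11, 0, 28 and 14 after IR (4.47 ± 1.20, adjusted p = 0.141). Mouse 67947 stood among the IR mice for Ccl17. Ccl6, a monocyte chemoattractant, did not overlap at 8.98, 9.92, 9.07 and 9.25 against 8.66, 7.66, 7.84 and 7.66 (1.34 ± 0.50, adjusted p = 0.235). Of 21 chemokines 5 were higher and 0 lower at an unadjusted p under 0.05. Their median difference was 0.49, from 0.29 without 68344 to 1.20 without 68343. Chemokine transcripts are short, and the shortest length class had a median of 0.498 with 24.3% of its genes higher, so neither the count nor the median stood apart from genes of that length. In the fit of the 8 libraries with the length offset, Ccl6 was called at 1.08 ± 0.26 (adjusted p = 0.0361). Ccl17 was not called there, at 3.68 ± 1.1 (adjusted p = 0.0702).

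Glioma and oligodendrocyte precursor transcripts, which mark tumour or precursor cells rather than microglia, lay lower after IR+BLZ945. All 13 genes had negative differences, the median was -1.45, and 6 of 13 were lower at an unadjusted p under 0.05, where 8.94% of all genes were. In the fit of the 8 libraries 7 of 13 were called lower, where 11% of all genes were. With the length offset 4 were, where 3.91% of all genes were called lower. Pdgfra, the receptor of the ligand that drives these tumours, was 5.27, 4.99, 6.10 and 3.97 after IR+BLZ945 and 6.18, 6.69, 7.5 and 7.77 after IR, against -3.48 to 3.16 in vehicle MG (-1.90 ± 0.80, adjusted p = 0.286; 0.0162 in the fit of the 8 libraries). Olig2, a lineage factor, was 2.46, 3.15, 3.56 and 0.98 against 4.26, 4.11, 5.12 and 5.27 (-1.98 ± 0.65, adjusted p = 0.21), and Nes, the filament gene of progenitors, 2.33, 1.59, 1.19 and 1.49 against 3.14, 3.64, 4.29 and 4.17 (-2.19 ± 0.63, adjusted p = 0.154). The list summed to 110 to 428 CPM after IR+BLZ945, 440 to 981 after IR and 63.9 to 105 in vehicle MG. In BMDM of the same mice the list median was -1.17, with 0 genes at an unadjusted p under 0.05.

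Endothelial transcripts ran the same way. All 10 differed negatively with a median of -1.43, and 4 were lower at an unadjusted p under 0.05, where 8.94% of all genes were. The length class into which their median length falls had a median of -0.323, with 8.21% of its genes lower at that p. The groups did not overlap for 7 of the 10, where 15.7% of all genes were lower without overlap. Pecam1, an endothelial adhesion molecule, was 1.89, 2.08, 2.65 and 1.39 after IR+BLZ945 and 3.44, 3.60, 3.96 and 3.45 after IR (-1.57 ± 0.56, adjusted p = 0.218), and Vwf, the clotting factor of vessels, 0.26, -1.13, 0.69 and -0.61 against 1.99, 1.58, 3.14 and 2.14 (-2.46 ± 0.78, adjusted p = 0.179). Summed, the list was 20.1 to 36.7 CPM against 55.9 to 91.2, and 23.2 to 53 in vehicle MG. The BMDM list median was -0.19. Basement membrane collagens lay with them: Col4a2 was -2.39, 0.94, 1.13 and -0.25 against 3.48, 2.83, 4.61 and 4.05 (-3.62 ± 1.04, adjusted p = 0.154; 0.00393 in the fit of the 8 libraries), and Col4a1 was 1.11 to 2.72 against 4.13 to 5.69. Of 23 matrix genes 19 had negative differences, with a median of -0.65. Mmp2, a gelatinase, was 4.88, 5.48, 5.82 and 4.49 against 6.26, 6.31, 6.85 and 6.34, and vehicle MG stood at 5.83 to 6.75 (-1.20 ± 0.37, adjusted p = 0.17). The part of tumour and vessel RNA in the matrix and growth factor values was not tested.

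**Figure D3:**
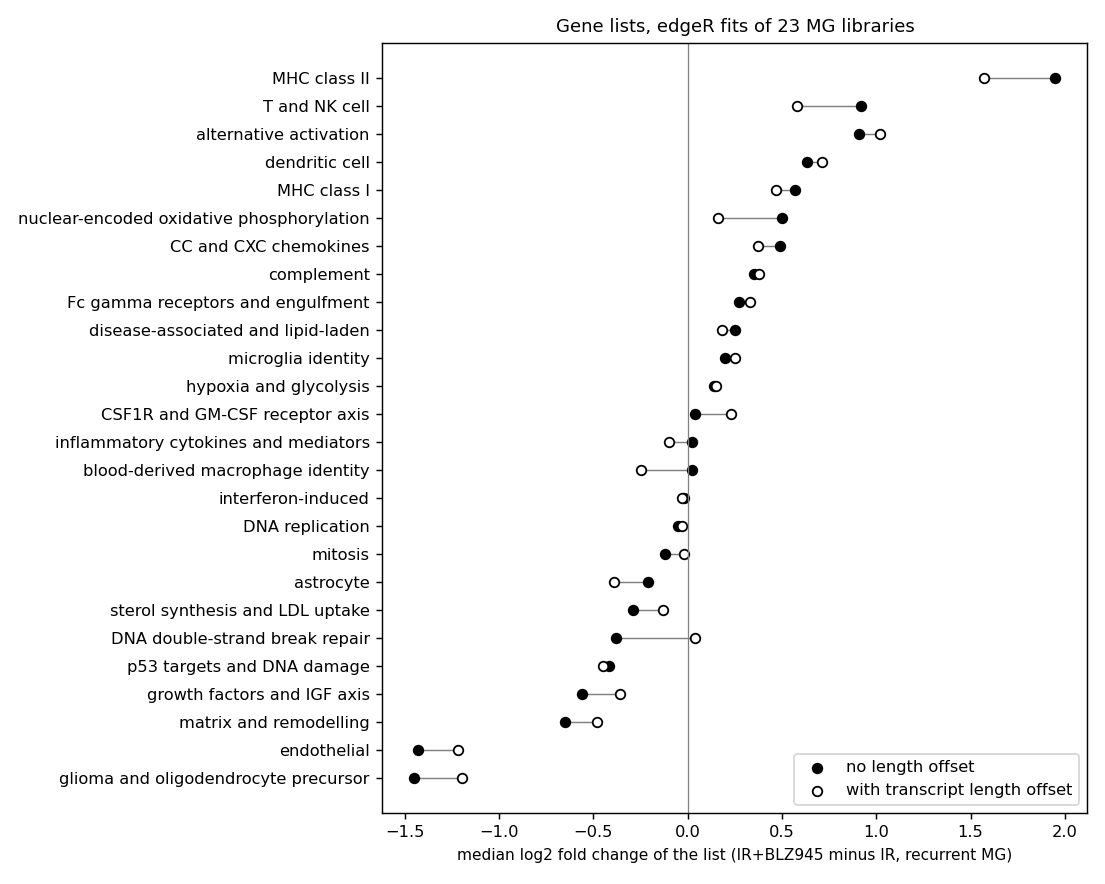
Median log2 fold change (IR+BLZ945 minus IR, recurrent MG) of the tested genes of 26 lists in the fits of 23 MG libraries, without (filled) and with (open) the transcript length offset. MHC class II lies highest of these lists in both, at 1.95 and 1.57, and the DNA double-strand break repair list moves from -0.38 to 0.04.

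Of 24 p53 targets and damage genes 18 had negative differences, the median was -0.42, and 2 were lower at an unadjusted p under 0.05, which is near the 8.94% of all genes. Cdkn1a, the p21 inhibitor of the cell cycle, was 8.27, 8.72, 8.26 and 7.41 after IR+BLZ945 and 8.96, 8.49, 8.95 and 8.98 after IR, both mostly above the 7.20 to 7.87 of vehicle MG (-0.62 ± 0.34, adjusted p = 0.401). Trp53inp1, a p53 cofactor in the stress response, was 3.79, 3.25, 3.62 and 3.95 against 5.40, 4.88, 5.23 and 5.23 (-1.53 ± 0.46, adjusted p = 0.154; 0.00269 in the fit of the 8 libraries, and 0.0194 there with the length offset). The double-strand break repair list moved from a median of -0.38 to 0.04 with the length offset. Atr, a checkpoint kinase gene with a long transcript, was 3.45, 2.91, 3.02 and 4.05 against 4.61, 4.73, 4.24 and 4.72 (-1.16 ± 0.40, adjusted p = 0.209), and -0.37 ± 0.33 with the offset. Mitosis genes had a median of -0.12 over 24 genes with 0 at an unadjusted p under 0.05, and Mki67, a marker of dividing cells, was 6.30, 4.92, 5.05 and 5.10 against 6.24, 6.30, 6.02 and 6.16 (-0.72 ± 0.62, adjusted p = 0.616), which was 0.07 ± 0.59 with the offset.

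Respiratory chain genes, which are short, lay higher in most members. Of 26 nuclear-encoded oxidative phosphorylation genes 12 were higher at an unadjusted p under 0.05, where 5.24% of all genes and 10.4% of their length class were. In the fit of the 8 libraries 20 were called higher, where 14.2% of all genes were. Their median difference was 0.50, and the length class into which their median length of 1387 bases falls, the second shortest of 10, had 0.262. With the length offset the median was 0.16 and 2 were called over the 8 libraries, where 2.85% of all genes were called higher and 3.91% lower. Cox7a2, a subunit of cytochrome oxidase, was 8.33, 8.21, 7.82 and 8.56 after IR+BLZ945 and 7.51, 6.67, 7.16 and 7.09 after IR (1.12 ± 0.33, adjusted p = 0.154), and 0.49 ± 0.16 with the offset. Sterol synthesis ran the other way with a median of -0.29, and Sqle, the squalene epoxidase, was 3.72, 2.94, 3.95 and 3.08 against 4.55, 3.96, 5.24 and 5.15 (-1.34 ± 0.42, adjusted p = 0.176).

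The 24 leading genes (12 in each direction with the smallest p, a mean level of at least 3 in one group and no overlap) had adjusted p of 0.113 to 0.129. Among the 12 higher ones, Aif1, the calcium-binding IBA1 of microglia, was 9.84, 9.76, 9.86 and 10.24 after IR+BLZ945 and 9.09, 8.91, 8.99 and 8.87 after IR (0.97 ± 0.21, adjusted p = 0.113). Hist1h1e, a linker histone gene, was at 4.54, 5.61, 4.35 and 3.59 against 2.5, 1.24, 2.12 and 1.86 (2.71 ± 0.62), and it was 2.59 ± 0.59 with the length offset. Fndc7 was 3.76, 4.52, 3.27 and 2.93 against 2.06, 1.58, 1.57 and 1.69 (2.02 ± 0.44). Gmfg, Lst1, Josd2, Rnaseh2c, Calm2, Pkig, Polr2k and Ninj1 differed by 0.75 to 1.66.

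Among the 12 lower ones, Axin1, a scaffold of the complex that degrades beta-catenin, was 3.56, 3.52, 3.27 and 3.69 against 5.14, 5.50, 5.73 and 5.67, with vehicle MG at 5.21 to 5.81 (-2.02 ± 0.37, adjusted p = 0.113). It had the lowest p of all genes, and its difference with the length offset was -1.88 ± 0.33 (adjusted p = 0.0988; 0.00277 in the fit of the 8 libraries). Lats1, a kinase of the Hippo pathway, was 3.77, 3.03, 3.38 and 3.58 against 4.86, 5.05, 4.97 and 4.97 (-1.51 ± 0.31), and Rcc2, a regulator of mitotic chromosomes, 4.26, 4.46, 4.07 and 4.27 against 5.28, 6.40, 6.32 and 6.30 (-1.87 ± 0.39). Cnot1, the scaffold of the deadenylase complex, was 5.49, 5.25, 4.60 and 4.95 against 6.45, 6.76, 6.57 and 6.52 (-1.47 ± 0.31), which was -0.71 ± 0.20 with the offset. Fam168b, Ptprj, Mast2, Dag1, Fam117b, Tmem131, Sec16a and Spire1 differed by -1.88 to -1.04. With the length offset, all 12 lower genes were called in the fit of the 8 libraries (adjusted p of 0.00277 to 0.0435), where 3.91% of all genes were called lower. Fndc7, Hist1h1e, Gmfg, Rnaseh2c and Polr2k among the higher ones were also called (0.00854 to 0.0467), where 2.85% of all genes were called higher. The other 7 higher genes were not called, with adjusted p of 0.05 for Ninj1, 0.0553 for Aif1, 0.0622 for Lst1, 0.0637 for C1qb, 0.0867 for Pkig, 0.0906 for Josd2 and 0.147 for Calm2, and their differences with the offset were 0.32 to 0.74.

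**Figure D4:**
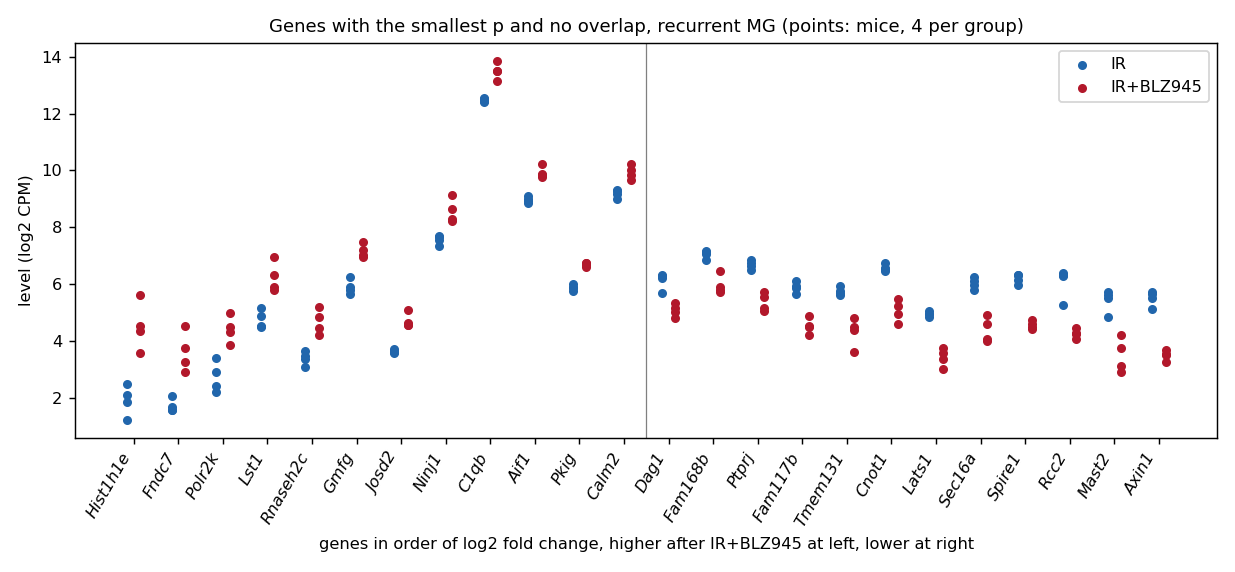
Level (log2 CPM) of the 24 genes with the smallest p and no overlap in recurrent MG, 4 mice after IR (blue) and 4 after IR+BLZ945 (red) for each gene, with genes higher after IR+BLZ945 on the left. Axin1, at the far right, lies at 3.27 to 3.69 after IR+BLZ945 and 5.14 to 5.73 after IR.

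The same contrast at 5 days pointed the other way for several microglia genes. A test of the difference between the contrast at recurrence and at 5 days, over the 23 MG libraries, called 24 genes, 14 with a higher (0.0963% of 14534) and 10 with a lower (0.0688%) value at recurrence. At an unadjusted p under 0.05 it had 531 higher (3.65%) and 1903 lower (13.1%). No length offset was fitted for this test, and the part of transcript length in it was not tested. The mean single-library length correlation was 0.113 after 5 days of IR+BLZ945 and 0.3245 after 5 days of IR. At recurrence it was -0.5305 and 0.04933. P2ry12 was 9.11, 9.08 and 9.29 after 5 days of IR+BLZ945 and 11.51 and 12.45 after 5 days of IR, while at recurrence the groups overlapped, so that the contrast rose by 3.17 ± 0.54 (adjusted p = 0.0247). Tmem119 was 9.93, 9.84 and 9.97 against 11.07 and 12.04 at 5 days, where the IR+BLZ945 mice were the lower, and at recurrence they were the higher (2.53 ± 0.49, adjusted p = 0.0498). Crybb1 was 4.42, 3.56 and 3.98 against 6.23 and 7.11 at 5 days (4.53 ± 0.78, adjusted p = 0.0247). Selplg, a selectin ligand, was 9.85, 9.88 and 9.76 against 11.25 and 12.08 at 5 days, and 10.41, 10.36, 10.73 and 10.04 against 9.80, 10.02, 9.91 and 10.18 at recurrence (2.31 ± 0.45, adjusted p = 0.0498). Calm2, a calmodulin gene, was 9.58, 9.30 and 9.33 against 10.34 and 9.89 at 5 days (1.48 ± 0.30, adjusted p = 0.0498). Cdkn1a was 9.69, 11.11 and 9.45 against 11.02 and 11.67, and its test did not pass (0.48 ± 0.54, adjusted p = 0.695). The genes with a lower value at recurrence included Enpp2 (-8.89 ± 1.8) of the choroid plexus and Mbp (-3.04 ± 0.59) of myelin, markers of other cells. The call of 24 rests on few mice. Without the IR+BLZ945 mouse 65696 of the 5-day group, or without 68344, 68345, 68346 or 68362 of the recurrent groups, 0 genes passed. The count was 1 without 68343, 4 without 67169 and 14 without 67947, against 141 without 67537 and 186 without 65971. The 5-day IR mouse 65698 had sex-linked profiles that differed between its MG and BMDM libraries. Its MG library, 65971 and 68344 were the libraries in doubt. Leaving out 65698 or 65972 leaves only the other mouse in the 5-day IR group, so counts without either are not given. A fit without the libraries in doubt has the same limit, and no conclusion is drawn from its count.

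**Figure D5:**
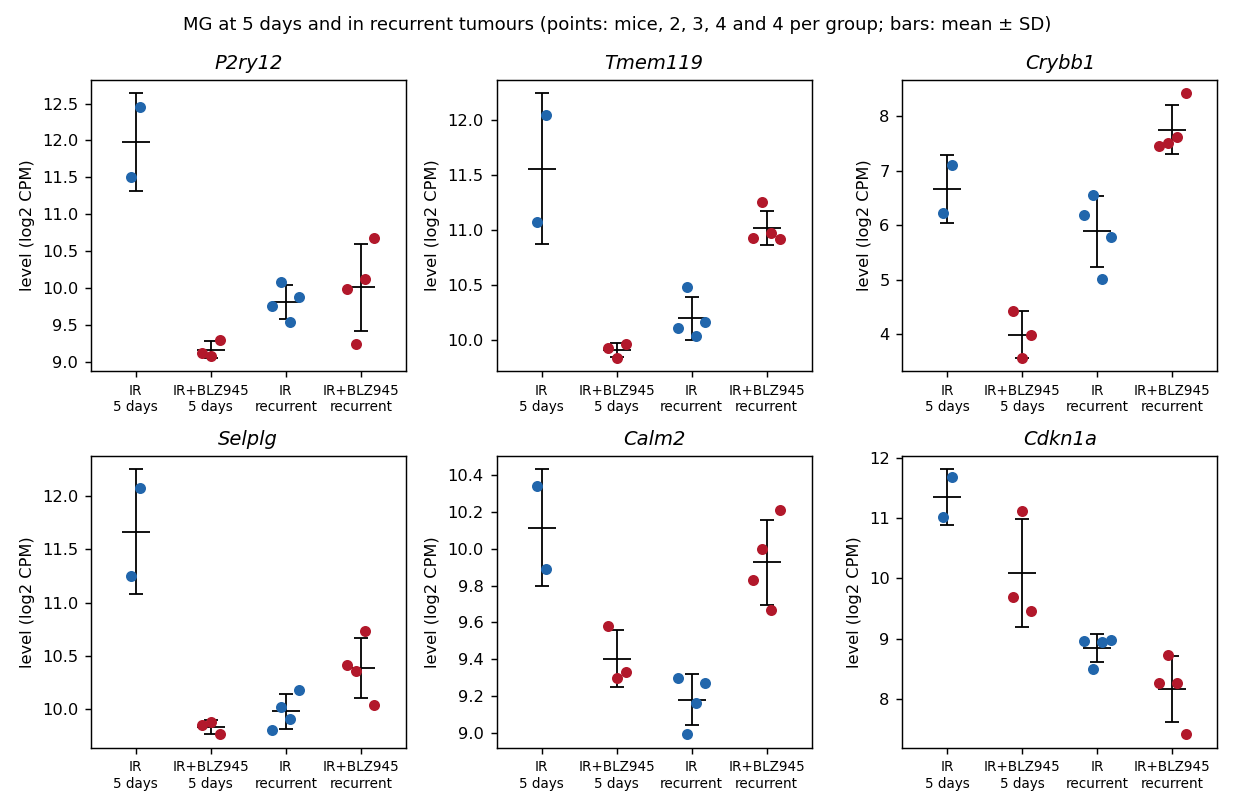
Level (log2 CPM) of 6 genes in MG after 5 days of IR (2 mice), after 5 days of IR+BLZ945 (3 mice) and in recurrent tumours after IR and IR+BLZ945 (4 mice each), with 1 point per mouse and bars of mean ± SD. Tmem119 after IR+BLZ945 lies at 9.84 to 9.97 at 5 days and at 10.92 to 11.25 at recurrence.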

How the data were processed

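The authors deposited raw read counts per gene for 46 libraries from 23 mice (23329 genes). Per the labels' protocols, cells were sorted after myelin removal and total RNA was amplified with a Smart-Seq kit. The submitters' processing notes name CASAVA 1.8, STAR 2.5.0e, HTSeq, DESeq2 and the mm10 build; no source names the annotation or strand setting, so overlapping and antisense genes cannot be separated. Groups came from the titles. Counts were filtered (edgeR's filterByExpr, minimum count 10, minimum total 15), scaled by TMM and tested with edgeR 4.0.16 (quasi-likelihood, robust; R 4.3.3) over all 23 MG libraries, which share one estimate of spread, with Benjamini-Hochberg adjustment at 0.05. Levels are log2 CPM with a prior count of 1. Transcript lengths came from GENCODE and matched 98.9% of tested genes; the offset used a loess of span 0.5. DESeq2 1.42.0 and limma 3.58.1 were alternatives. The fits were also run on simulated counts with known changes and no length relation between the recurrent groups. Means and spread there were set in advance, so that run cannot decide on the length relation or on the differing counts of the fits.

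The members and gene lists were chosen with earlier results of these data known; 654 of 658 list genes were found in the table. Named genes were the 12 per direction that passed, or else those of smallest p, with a mean of at least 3 and no overlap, up to 2 members of smallest p per described list where none passed, and a set followed whatever its values. Others were chosen after their values were seen: H2-Ab1, Cd74, Ciita, the C1q and DM and DO chains, Psmb8, Pdgfra, Col4a1, Selplg, Zbtb46, Flt3, Retnla, Sall1, Sall3, Cd209a, Enpp2 and Mbp. Libraries were in doubt where fewer than 11000 genes had 10 counts, or where sex-linked profiles of one mouse's libraries differed.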

Additional observations from a re-analysis of the deposited data

Results flagged for a closer look

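Of the genes followed here, 5 had a contrast that differed between recurrence and 5 days by edgeR's quasi-likelihood test: Crybb1 by 4.53, P2ry12 by 3.17, Tmem119 by 2.53, Selplg by 2.31 and Calm2 by 1.48 on the log2 scale. No length offset was fitted for this test.

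In other cases 1 mouse of 4 stood far from the other 3; of 212 groups of 4 examined 21 did so, and chance alone does this in about 1 of 20. The MG library of IR mouse 68344 had 4597962 counts (others 11831889 to 13231166) and 10944 genes with at least 10 counts (others 12608 to 12885). The same mouse had the lowest Cdkn1a, 8.49 (others 8.95 to 8.98), and the highest Cdkn2a, 1.11 (others 0.15 to 0.28). IR mouse 68343 had the lowest C1qc at 12.10, Dag1 at 5.69, Kif11 at 5.00 and Rcc2 at 5.28, and the highest Retnla at -2.64, which is 1 count. IR mouse 68345 had the highest Mmp2 at 6.85, and the highest Gzma and Nkg7, both at -2.66, where the other 3 had no count.

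After IR+BLZ945, mouse 67543 had the lowest C1qa at 12.83 (others 13.17 to 13.19) and Ptprc at 7.62 (others 8.36 to 8.48), and the highest Josd2 at 5.09 and Tmem119 at 11.25. Mouse 67947 had the lowest Flt3 at -1.09 (others 0.83 to 1.07) and the highest Igfbp7 at 3.39 (others 0.85 to 1.11). Mouse 68362 had the lowest Csf1r at 12.18 (others 12.39 to 12.42) and Sox9 at -0.42 (others 0.64 to 0.85). Mouse 67169 had the highest Mki67 at 6.30 (others 4.92 to 5.10).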

How the results depend on the processing

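The count of 0 for the MG comparison became 529 with DESeq2, 3094 with only the 8 libraries, 3517 and 2174 in those 8 without mouse 67947 or 68344, 829 in those 8 with the length offset and 4300 with limma voom and library weights. It was 0 in each leave-one-out fit of the 23 libraries. The BMDM count of 0 became 10 with DESeq2, 588 with voom and 100 in the 8 libraries without 67947, and the MG against BMDM count of 0 became 9 with DESeq2. The 24 genes of the test against 5 days became 636 with DESeq2, 9 with RLE size factors, 110 without the libraries in doubt, 10 with a term for sex-linked profile, and 0 to 186 with each mouse left out. For this test, the fit without the libraries in doubt leaves only mouse 65972 in the 5-day IR group. No conclusion is drawn from its count. Neither end of the range over mice left out comes from a fit without 65698 or 65972. The cause of the differing counts was not tested.

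Differences that changed sign with the length offset (23 libraries, then 8) were Stab1 (0.04, 0.04), Mki67 (0.07, 0.08), Igf1r (0.11, 0.11), Mrc1 (0.31, 0.30), Cdkn2a (-0.27, -0.22), Ptprc (0.26, 0.25), Itgam (0.08, 0.07) and Malat1 (-0.08, -0.07). Igf1 was 0.05 with DESeq2 and with RLE, 0.41 without the libraries in doubt, 0.06 over 46 libraries, 0.15 with voom, and 0.10, 0.22 and 0.57 in the 8 libraries, without 67947 and without 68344. Leaving out 1 mouse gave Igf1 0.02, 0.10, 0.14 and 0.47 (67169, 67543, 67947, 68344), Csf1 0.12 (68362), Apoe -0.06 and Ly6c2 -0.51 (67947), Mrc1 0.01 (67543) and 0.05 (68345), and Ptprc 0.04 (67543); over all 8 mice left out in turn, the ranges were -0.28 to 0.47 for Igf1, -0.53 to 0.12 for Csf1, -0.06 to 0.86 for Apoe, -0.37 to 0.05 for Mrc1 and -0.51 to 1.79 for Ly6c2. Csf1 was 0.08 in the 8 libraries without 68344, and Cdkn2a -0.12 with the sex-linked term.

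No paired analysis was possible because the 2 recurrent groups are different mice. MG and BMDM of one mouse do pair, and with the mouse as a block the MG against BMDM comparison called 0 genes, the same as without it. Alternatives with the length offset, voom, and the 8 libraries without 67947 or 68344 were chosen after seeing the data.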
